A study of Homo sapiens with 6 samples.

Results

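AC007128.1 is a long non-coding RNA (lncRNA) gene on the short arm of human chromosome 7, in band 7p21, and the genes described here are AC007128.1 and the 9 genes listed as its neighbours. They were chosen by position, with earlier results of these data known, and make up 10 of the 67140 gene identifiers in the count table. KYSE150, an established cell line of human esophageal squamous cell carcinoma, was sequenced as 3 samples carrying the control hairpin (shCtrl) and 3 samples carrying a hairpin against AC007128.1 (shAC007128.1). The cells grew in RPMI 1640 with fetal bovine serum, and the study made stable lines with lentivirus and puromycin, whereas the labels speak of transfection. The design thus has 1 cell line, 1 targeting hairpin and 1 control hairpin, so effects of AC007128.1 and of that hairpin or line cannot be told apart. The labels do not say whether the samples of a group came from separate cultures, so the p-values measure only the spread between these samples.

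A lncRNA can act in trans, away from its gene, or in cis, where its transcription or its RNA affects genes on the same stretch of chromosome. Many lncRNAs start next to the promoter of a coding gene and run in the opposite direction, and the partners of such a pair may share regulatory DNA. A short hairpin RNA is processed into a guide that pairs with a mature transcript, mostly in the cytoplasm, so it lowers the RNA without stopping transcription of the locus. The comparison asked how the RNA of the neighbours stood in shAC007128.1 cells, in the order of their distance from the targeted gene.

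AC007128.1 is listed in the table as ENSG00000229970. In the GENCODE v44 annotation of hg38 it lies on the plus strand of chromosome 7 from 8262264 to 8344516 and has 7 exons with a spliced length of 1853 bases. The bases that the hairpin and the study's siRNAs pair with are shown because their place decides which transcripts they can reach. Each line below gives 29 bases of the plus strand of hg38, with the 19 target bases in capitals.
shAC007128.1 hairpin and siAC007128.1-2, chr7:8343197-8343225: acctaCCACAAGTCCTGGCACATTgaggg
siAC007128.1-1, chr7:8262679-8262707: ctactGCTTGCTTCCAGGTTAAATttctg
siAC007128.1-3, chr7:8344301-8344329: caataGCTAGCAGACATAGTTATTggaat
The hairpin and siAC007128.1-2 have the same target, in exon 6, and siAC007128.1-3 pairs with exon 7. The target of siAC007128.1-1 is in exon 2, where all 19 of its bases are also exonic in ICA1-AS1 and 4 lie opposite an exon of ICA1. Of all genes with GENCODE v44 transcripts, 1 held the full hairpin target, AC007128.1, and 0 held its reverse complement. The heptamer GGCACAT, which pairs with bases 2 to 8 of the hairpin's guide, was found in the longest transcript of 17.5% of the genes tested. Among the neighbours it occurred 1 time in COL28A1 and 1 time in NXPH1 and in none of the other 7.

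AC007128.1 shares 782 of its 1853 exonic bases (42.2%) with other genes. ICA1-AS1, a short lncRNA gene on the same strand from 8262233 to 8262821, shares 398 of its 429 exonic bases (92.8%) with AC007128.1, and with the ICA1 overlap none of its bases are its own. ENSG00000272328, another lncRNA on the same strand, shares 384 bases in exons 4 and 5, and ICA1 on the opposite strand shares 118 bases in exons 1 and 2. The remaining 1071 bases (57.8%), of which exon 7 gives 810, belong to AC007128.1 alone. RefSeq places the gene it calls ICA1-AS1 from 8262225 to 8343281, a span that holds 1034 of the exonic bases of AC007128.1 and the hairpin target as well. The 2 annotations thus draw the border between ICA1-AS1 and AC007128.1 at different places, and counts given to either gene depend on which was used. The annotation release behind the deposited counts is not given in the sources used here. ICA1 and ICA1-AS1 run towards each other through their overlapping first parts, with 149 exonic bases shared on opposite strands, and their RefSeq promoter windows of 300 bases overlap by 157 bases.

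**Figure D1:**
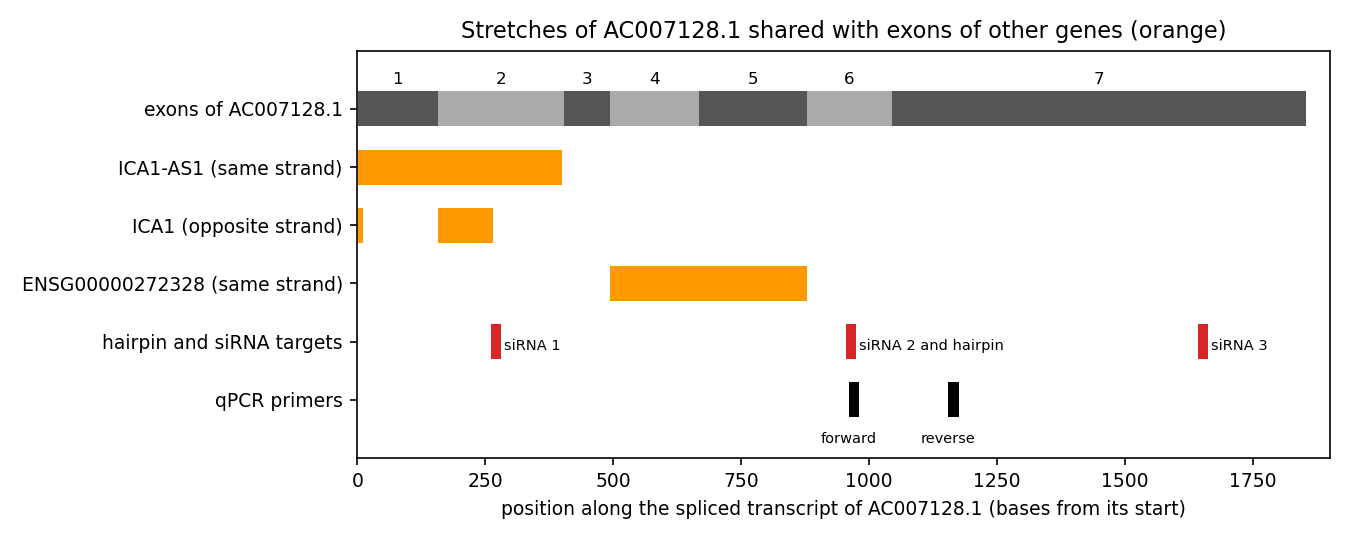
Position along the spliced transcript of AC007128.1 in bases (horizontal), with its 7 exons in grey, stretches shared with exons of other genes in orange, the targets of the hairpin and siRNAs in red and the qPCR primers in black. The hairpin target at bases 955 to 973 and both primers lie in the part shared with no other gene, and the forward primer at bases 961 to 980 overlaps the hairpin target.

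The libraries held 65140326 to 78610457 counts in shCtrl samples and 55764405 to 60158244 in shAC007128.1 samples. Levels are given as CPM, counts in 1e6 of the library size after TMM scaling, whose factors ranged from 0.967 to 1.042. A count of 3, taken as the smallest detectable level, equals 0.0373 to 0.0546 CPM and covers counting error only. The samples separated by group on the first principal component, and shAC007128.1 replicate 3 stood furthest from shCtrl, at 77.7 against 65.3 and 65.9. The summed level of 10 squamous epithelial markers was 1756 to 1775 CPM in shCtrl samples and 2680 to 3397 CPM in shAC007128.1 samples. At an adjusted p of at most 0.05 by edgeR, 6 of these markers were higher and 1, DSG3, lower. Of all genes tested, 21.0% were higher and 19.8% lower. The 7 fibroblast markers summed to at most 23.9 CPM (15.3 to 16.2 in shCtrl, from 20.9 in shAC007128.1), the 5 endothelial markers to at most 3.23 CPM and the 7 leukocyte markers to at most 1.29 CPM, with CD3D and MS4A1 at 0 throughout. Their part in the results on 7p21 was not tested. In bulk samples fewer cells of a type and less RNA per cell cannot be told apart.

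The targeted gene was sparse in every sample. In the 3 shCtrl samples, numbered 1 to 3, AC007128.1 was counted 69, 33 and 53 times, which is 0.943, 0.410 and 0.781 CPM. In the 3 shAC007128.1 samples it was counted 18, 37 and 15 times, which is 0.320, 0.674 and 0.258 CPM. The groups overlapped, since shAC007128.1 replicate 2 lay above shCtrl replicate 2. The mean was 0.712 ± 0.273 CPM (SD, n = 3) in shCtrl and 0.417 ± 0.224 CPM (SD, n = 3) in shAC007128.1, and the fitted level was 0.587 times control with a 95% interval from 0.257 to 1.34. On the log2 scale this is a fold change of -0.77 ± 0.51 (standard error; adjusted p = 0.271 by edgeR). A change was therefore not detected in these counts, and the interval holds a fall to 0.257 of control as well as a rise. The study itself reports, from qPCR, that the hairpin lowered AC007128.1. It also reports that this RNA is found mainly in the nucleus of KYSE150 cells. Leaving out shAC007128.1 replicate 2 gave the lowest log2 fold change, -1.29, and leaving out shCtrl replicate 1 the highest, -0.51.

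ENSG00000272328, which shares exons 4 and 5 of AC007128.1, was sparse too. It had 0.260, 0.361 and 0.206 CPM in shCtrl replicates 1, 2 and 3 and 0.196, 0.237 and 0.292 CPM in shAC007128.1 replicates 1, 2 and 3, with overlapping groups and a log2 fold change of -0.19 ± 0.48 (standard error; adjusted p = 0.783 by edgeR). Its counts and those of AC007128.1 are uncertain, because reads from shared exons may have been given to either.

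The closest neighbours gave no signal. ICA1, which encodes islet cell autoantigen 1, a BAR domain protein of secretory vesicles and the Golgi, lies on the minus strand from 8113184 to 8262687 and starts 423 bases from the start of AC007128.1. It was listed at 0 in all 6 samples, and so was ICA1-AS1, which starts 31 bases away. A count of 0 allows at most 3 counts, 0.0373 to 0.0546 CPM. Of the protein-coding genes in the table, 14.8% were listed at 0 in all 6 samples, and of those on chromosome 7, 11%. None of 20 housekeeping genes was, a set chosen after the zeros were seen. Both genes share exonic bases with AC007128.1, but to unlike degrees. ICA1-AS1 shares all 429 of its exonic bases with other genes, and ICA1 shares 169 of 4883 (3.46%). How the authors' counting treated bases in more than 1 gene is not given in the sources used here, so absence of their RNA cannot be read from the 0. The cause of either 0 was not tested. NXPH1 encodes neurexophilin 1, a secreted ligand of neurexins in the nervous system. It lies 89.1 kb beyond the end of AC007128.1, on the plus strand from 8433609 to 8752961, and had 5 counts in shCtrl replicate 3 and 0 in the other 5 samples. These 3 genes were removed by the filter on low counts and no difference could be tested for them.

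GLCCI1, the nearest neighbour with a measurable level, rose. It encodes glucocorticoid induced 1, named for its induction by glucocorticoids, and lies 168 kb from AC007128.1 on the plus strand from 7968796 to 8094272. Its levels were 5.18, 5.93 and 3.20 CPM in shCtrl replicates 1, 2 and 3, and 11.8, 12.7 and 13.4 CPM in shAC007128.1 replicates 1, 2 and 3. Every shAC007128.1 sample lay above every shCtrl sample, by a factor of 2.64 in the fit (95% interval 1.81 to 3.85). Its log2 fold change of 1.40 ± 0.23 (standard error; adjusted p = 0.00281 by edgeR) was past the study's limit of 2-fold. The exact permutation p over samples was 0.1, the smallest that 3 samples against 3 allow. GLCCI1 shares 182 of its 6883 exonic bases (2.64%) with other genes, 146 of them with ENSG00000283549.

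RPA3 rose as well, by less than 2-fold. It encodes the smallest subunit of replication protein A, the complex that coats single-stranded DNA in replication and repair, and lies on the minus strand from 7636518 to 7718607, 544 kb away. Its levels were 32.8, 30.6 and 26.7 CPM in shCtrl replicates 1, 2 and 3, and 56.1, 53.3 and 54.8 CPM in shAC007128.1 replicates 1, 2 and 3. The groups did not overlap, and the fitted factor was 1.82 (95% interval 1.55 to 2.14, adjusted p = 0.000553 by edgeR), or 0.87 ± 0.10 (standard error) on the log2 scale. GLCCI1 and RPA3 were the 2 neighbours that passed an adjusted p of at most 0.05, both upwards, and 0 of the 7 tested members passed downwards by edgeR, DESeq2 or limma-voom, nor by edgeR at an unadjusted p under 0.05. Over all 19254 genes tested, 40.8% passed in either direction, 21.0% upwards and 19.8% downwards. With the 2-fold limit, 1 of the 7 tested members passed, GLCCI1, against 15.7% of all genes, 5.57% upwards and 10.1% downwards. The 2 rising genes were also the only members whose groups did not overlap, whereas 55.2% of the genes tested had groups that stayed apart, 27.0% upwards and 28.2% downwards. The 2 of 7 members (28.6%) stand beside 40.8% of all genes in either direction and 21.0% upwards, and with 7 genes nothing particular to them is read from that count.

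**Figure D2:**
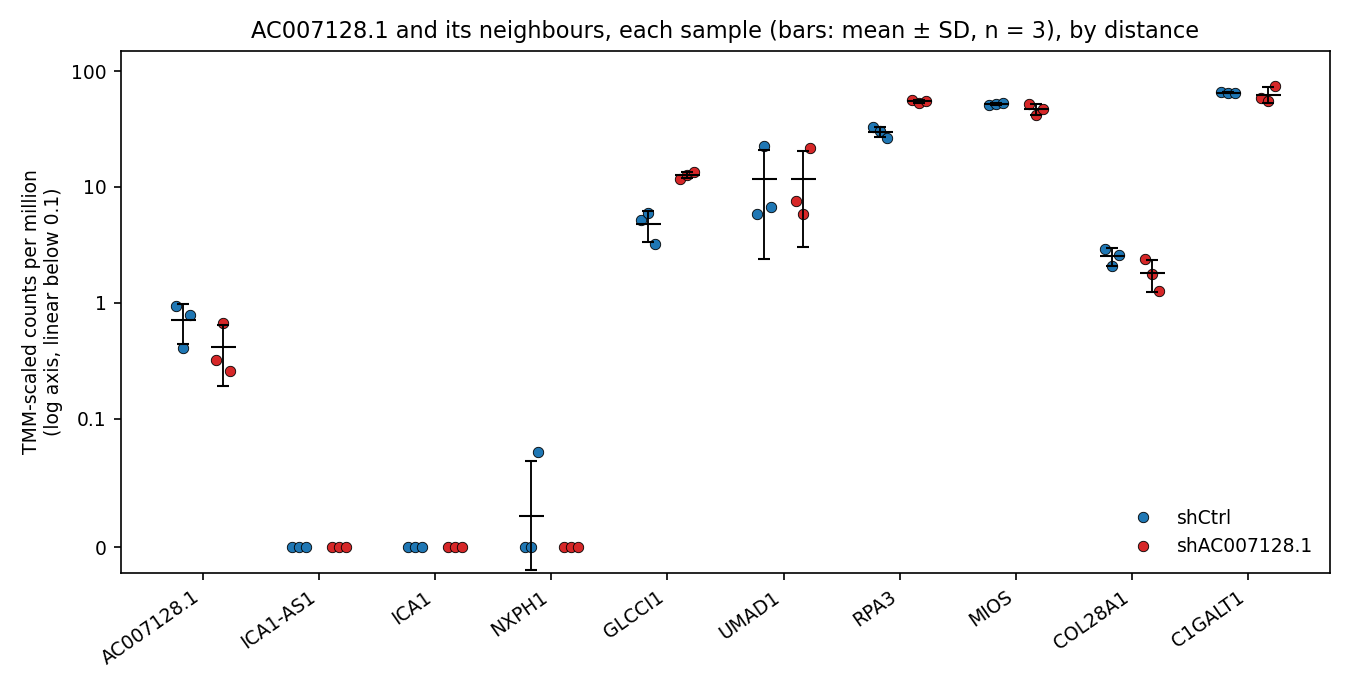
TMM-scaled CPM of each gene (vertical, log axis that is linear below 0.1), in order of distance from AC007128.1, with shCtrl samples in blue, shAC007128.1 samples in red and bars for the mean ± SD (n = 3). GLCCI1 and RPA3 have every red point above every blue point, ICA1 and ICA1-AS1 sit at 0, and UMAD1 has 1 high sample in each group.

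Between these genes lies UMAD1, which encodes a small protein named for its similarity to the UBAP1 and MVB12 proteins of the ESCRT-I sorting complex. It lies on the plus strand from 7640711 to 7968020, 294 kb from AC007128.1. Its levels were 5.88, 22.4 and 6.74 CPM in shCtrl replicates 1, 2 and 3, and 7.58, 5.88 and 21.7 CPM in shAC007128.1 replicates 1, 2 and 3. Thus 1 library in each group was high, and the other 4 lay between 5.88 and 7.58 CPM. The log2 fold change was 0.01 with a 95% interval from -1.52 to 1.54 (edgeR adjusted p = 0.995), which spans differences of over 2-fold either way. Without shCtrl replicate 2 the log2 fold change was 0.89, and without shAC007128.1 replicate 3 it was -0.80. UMAD1 shares 720 of its 3752 exonic bases (19.2%) with other genes, 491 of them with ENSG00000283549 and 118 with RPA3 on the opposite strand, so its counts are uncertain. ENSG00000283549, a lncRNA that runs along UMAD1 from 7640752 to 8004053 and reaches into GLCCI1, had 0, 0.845 and 0 CPM in shCtrl replicates 1, 2 and 3 and 0, 1.0 and 1.24 CPM in shAC007128.1 replicates 1, 2 and 3. The 2 libraries in which UMAD1 was high were among the 3 in which this lncRNA was detected.

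The 3 more distant neighbours did not pass the test. MIOS encodes a subunit of GATOR2, a complex that relays amino acid supply to mTORC1, and lies 653 kb away from 7566875 to 7608932 on the plus strand. It stood at 50.7, 51.9 and 53.2 CPM in shCtrl replicates 1, 2 and 3, and at 51.7, 42.2 and 47.0 CPM in shAC007128.1 replicates 1, 2 and 3. The groups overlapped through shAC007128.1 replicate 1, the fitted factor was 0.904 (95% interval 0.775 to 1.06), and edgeR's adjusted p was 0.267. This interval is narrow enough to leave out a 2-fold difference in either direction.

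COL28A1 encodes the chain of collagen XXVIII, a collagen with von Willebrand A domains, and lies on the minus strand from 7356203 to 7535873, 726 kb away. Its levels were 2.92, 2.06 and 2.56 CPM in shCtrl replicates 1, 2 and 3, and 2.37, 1.78 and 1.26 CPM in shAC007128.1 replicates 1, 2 and 3. Replicate 1 of shAC007128.1 lay within the shCtrl range and the other 2 below it. The factor was 0.716 (95% interval 0.454 to 1.13; adjusted p = 0.214 by edgeR), or -0.48 ± 0.28 (standard error) on the log2 scale, and a difference was not detected.

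C1GALT1 encodes the core 1 synthase that adds galactose to mucin-type O-glycans, and lies 1014 kb away on the plus strand from 7156934 to 7248616. It stood at 65.9, 65.3 and 64.2 CPM in shCtrl replicates 1, 2 and 3, and at 59.2, 55.3 and 73.7 CPM in shAC007128.1 replicates 1, 2 and 3. The shAC007128.1 samples thus lay on both sides of a tight shCtrl group. The factor was 0.963 (95% interval 0.798 to 1.16, edgeR adjusted p = 0.742). Without shAC007128.1 replicate 3, the library that stood apart on the first component, the log2 fold change was -0.19 and passed the threshold (edgeR adjusted p = 0.0431).

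**Figure D3:**
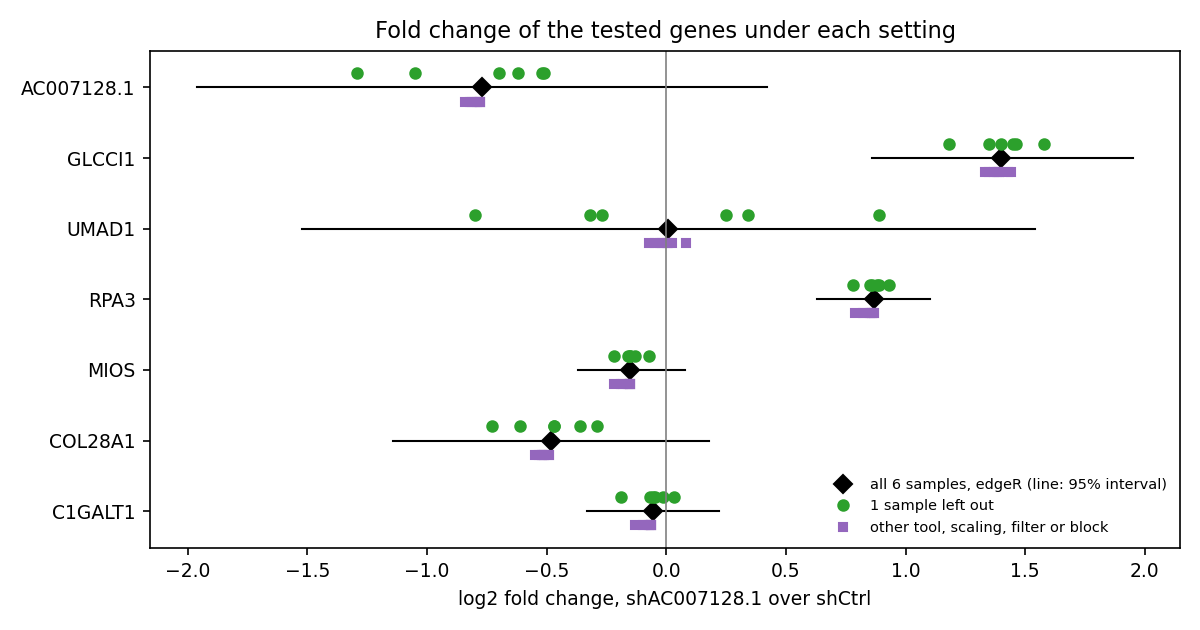
Log2 fold change of shAC007128.1 over shCtrl (horizontal) for the 7 genes tested, in order of distance, with the value from all 6 samples as a diamond with its 95% interval, the values without 1 sample each as circles, and other tools, scalings, filters and the replicate block as squares. GLCCI1 and RPA3 stay above 0 throughout, AC007128.1 ranges from -1.29 to -0.51 with 1 sample left out, and UMAD1 crosses 0.

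Compared per kilobase of exonic sequence, the shCtrl levels of these genes spread widely. RPA3 was highest at 9.29 ± 0.963 CPM per kilobase (SD, n = 3), followed by C1GALT1 at 8.38 ± 0.114, MIOS at 7.73 ± 0.182 and UMAD1 at 3.11 ± 2.48. GLCCI1 was at 0.693 ± 0.205, AC007128.1 at 0.384 ± 0.147 and COL28A1 at 0.379 ± 0.0651. The ranges of RPA3 and C1GALT1 overlapped, as did those of GLCCI1 and AC007128.1 and those of AC007128.1 and COL28A1. In shAC007128.1 cells RPA3 reached 16.9 ± 0.442 CPM per kilobase and GLCCI1 1.83 ± 0.121, while AC007128.1 was at 0.225 ± 0.121. By mean level on this measure the targeted lncRNA stood at place 6 of the 10 genes in shCtrl, above COL28A1, NXPH1, ICA1 and ICA1-AS1. The length used merges the exons of all transcripts of a gene. For COL28A1 it is 6639 bases where the longest transcript has 4297, and for AC007128.1 both are 1853. The order of genes close in level, such as these 2, thus depends on the length chosen. In shAC007128.1 cells COL28A1, at 0.271 ± 0.0836 CPM per kilobase (SD, n = 3), stood above AC007128.1. The level of AC007128.1 is uncertain, since 42.2% of its exonic bases are shared with other genes.

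The tested genes of the region were then ordered by their distance from AC007128.1. Within 1 Mb of AC007128.1 the table held 27 genes, of which 11 were tested. GLCCI1 and RPA3 were higher (18.2%, against 21.0% of all genes) and 0 were lower by edgeR, DESeq2 or limma-voom. At an unadjusted p under 0.05 edgeR had 1 lower gene, the pseudogene ENSG00000233264, which also passed when at least 10 counts were required in every sample. Over 1 and up to 2 Mb 18 genes were tested, with 2 higher and 6 lower (44.4% passed), and over 2 and up to 5 Mb 38 were tested, with 5 higher and 5 lower (26.3% passed). In all, 29 genes were tested within 2 Mb, with 4 higher and 6 lower, and 67 within 5 Mb, with 9 higher and 11 lower. The share that passed was 34.5% within 2 Mb and 29.9% within 5 Mb, against 40.3% of the genes of chromosome 7 and 40.8% of all genes. The median log2 fold change was 0.01 within 1 Mb, -0.41 over 1 and up to 2 Mb and -0.07 over 2 and up to 5 Mb, against -0.02 for all genes tested. The median size of the log2 fold change was 0.48, 0.45 and 0.30 in these 3 bins, lowest in the farthest, and 0.51 over all genes. Whether the bins differ was not tested. Across the 67 genes, the size of the log2 fold change and the distance had a Spearman's rho of 0.06, given as a description, since genes measured in the same libraries are not independent. Of the 59 tested genes on the telomeric side 18 passed, and of the 7 on the centromeric side 2 did.

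**Figure D4:**
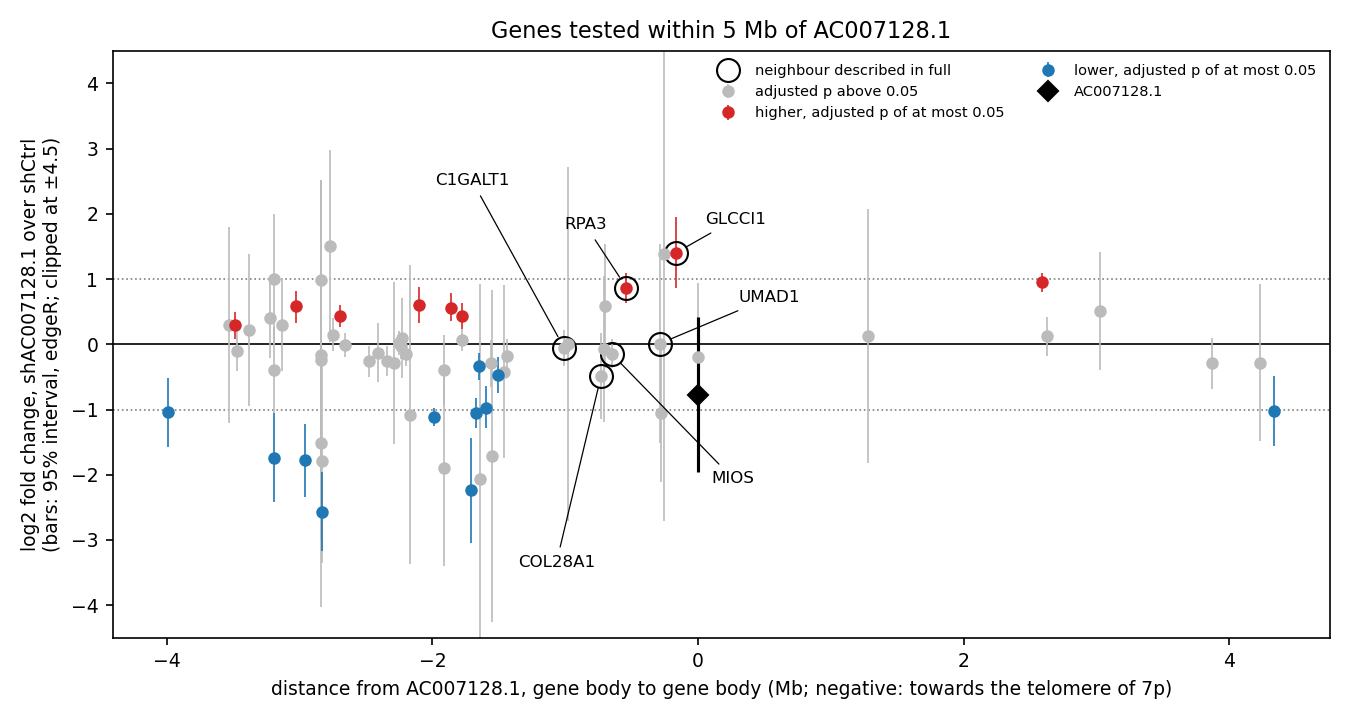
Log2 fold change of shAC007128.1 over shCtrl (vertical, with 95% intervals) against the distance from AC007128.1 in Mb (horizontal, negative towards the telomere) for the 67 genes tested within 5 Mb and for AC007128.1 as a diamond. Genes higher (red, 9) and lower (blue, 11) at an adjusted p of at most 0.05 stand on both sides of 0, and GLCCI1 and RPA3 are the passing genes nearest to AC007128.1.

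The other tested genes near AC007128.1 were mostly sparse. Besides ENSG00000272328 and ENSG00000283549, the pseudogene ENSG00000233264 at 280 kb stood at -1.06 ± 0.45 on the log2 scale (standard error; adjusted p = 0.0987 by edgeR). The lncRNA genes MIOS-DT, ENSG00000272732, LINC03016 and ENSG00000234710 ranged from -0.07 to 0.58 in log2 fold change with group means of at most 1.39 CPM, and none passed. Near 1.5 Mb on the telomeric side lie CCZ1B, RSPH10B2 and PMS2CL, copies within a duplicated stretch whose values are uncertain, since reads may be split among near-identical partners. Of these PMS2CL, from 29.5 ± 2.39 to 21.3 ± 2.44 CPM (SD, n = 3), was lower (log2 fold change -0.47, edgeR adjusted p = 0.0177).

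Chosen after their values were seen, ZDHHC4, GRID2IP and CYTH3 were the 3 genes within 2 Mb that passed both the test and the 2-fold limit downwards. Others with values below -1 on the log2 scale, such as FAM220A at -1.89 (adjusted p = 0.0518 by edgeR), did not pass. CYTH3, which encodes a guanine nucleotide exchange factor of ARF proteins, went from 384 ± 5.66 to 177 ± 7.84 CPM (SD, n = 3) at 1.99 Mb. ZDHHC4, a palmitoyltransferase gene at 1.67 Mb, went from 73.3 ± 7.35 to 35.3 ± 1.10 CPM (SD, n = 3). GRID2IP, at 1.71 Mb, went from 2.11 ± 0.0708 to 0.446 ± 0.181 CPM (SD, n = 3). In the opposite direction RAC1, the gene of a small GTPase of cell migration, went from 286 ± 5.12 to 423 ± 51.8 CPM at 1.86 Mb, and DAGLB, a lipase gene at 1.78 Mb, from 41.3 ± 1.71 to 55.6 ± 3.86 CPM (SD, n = 3). Genes that rose and genes that fell thus lay side by side at 1.6 to 2 Mb.

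The proteins of several neighbours work in complexes or pathways whose other genes lie elsewhere in the genome, and these were read alongside. Of the 58 tested partner genes in 8 lists, 15 were higher and 21 lower, with a median log2 fold change of -0.07 against -0.02 for all genes. The shares of all genes, 21.0% higher and 19.8% lower, are the background for each list below, and the lists are small. The genes of the larger subunits of replication protein A rose, as RPA3 did. RPA1 went from 125 ± 3.49 to 282 ± 10.2 CPM (SD, n = 3), or 1.17 ± 0.06 (standard error) on the log2 scale (adjusted p = 3.61e-05 by edgeR), and RPA2 from 36.6 ± 1.54 to 50.2 ± 6.52 CPM (log2 fold change 0.45, edgeR adjusted p = 0.0159). RPA4, a related gene of very low level, was at 0.264 ± 0.0364 CPM in shCtrl and 0.0956 ± 0.0564 CPM in shAC007128.1 (SD, n = 3) and did not pass (edgeR adjusted p = 0.117). RPA1 and RPA2 lie on other chromosomes than RPA3.

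For MIOS, 1 of 7 tested partners in the GATOR complexes was higher and 3 were lower (all genes, 21.0% and 19.8%). The GATOR1 genes NPRL2 and NPRL3, whose complex restrains mTORC1, had log2 fold changes of -0.72 (standard error 0.10, edgeR adjusted p = 0.0011) and -0.63 (standard error 0.12). The GATOR2 gene WDR24 was at -0.61 (standard error 0.11), and WDR59, named after its value was seen, was the higher gene at 0.31 (standard error 0.08).

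For UMAD1, 6 of 10 tested ESCRT-I genes and relatives were lower and 2 higher, beside 19.8% and 21.0% of all genes. VPS28, a core subunit, stood at -1.07 ± 0.10 on the log2 scale (standard error). TSG101, the subunit that binds ubiquitin, went from 93.1 ± 1.60 to 66.1 ± 1.61 CPM (SD, n = 3) and VPS37C from 67.3 ± 0.594 to 36.9 ± 3.51 CPM. The higher genes, UBAP1 and VPS37B, were named after their values were seen and had log2 fold changes of 0.57 and 0.63.

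For C1GALT1, 6 of 20 tested genes of mucin-type O-glycan synthesis were higher and 4 lower, beside 21.0% and 19.8% of all genes. GALNT2 and GALNT7, which encode enzymes that start these glycans, had log2 fold changes of 2.07 (standard error 0.10) and 1.05 (standard error 0.07). ST6GALNAC2, a sialyltransferase gene, had -1.89 (standard error 0.13). The other 3 lower genes, named after their values were seen, were GALNT12, ST3GAL1 and ST6GALNAC4. C1GALT1C1, which encodes the chaperone that the C1GALT1 protein needs, had 0.22 (standard error 0.16, edgeR adjusted p = 0.316).

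Of 7 tested genes in the list of the glucocorticoid receptor and genes it induces, drawn up around GLCCI1, 3 were higher and 3 lower, where 40.8% of all genes passed either way. NR3C1, the receptor gene, and FKBP5, a chaperone gene it induces, had log2 fold changes of 0.71 (standard error 0.09) and 1.30 (standard error 0.11), as GLCCI1 did at 1.40. DUSP1, a phosphatase gene induced by the receptor and by other signals, had -1.95 (standard error 0.10). CEBPD was also higher, and PER1 and SGK1 lower, at 0.55, -0.79 and -0.86, all 3 named after their values were seen.

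The remaining lists were those of ICA1, NXPH1 and COL28A1. Of the 4 tested relatives of ICA1, 0 passed by edgeR, DESeq2 or limma-voom, nor by edgeR at an unadjusted p under 0.05, with log2 fold changes of 0.02 for ICA1L, 0.06 for PICK1, 0.58 for ARFIP1 and -0.17 for ARFIP2. All 3 tested genes of the neurexophilin and neurexin list were lower, as were 19.8% of all genes. NXPH4 went from 16.4 ± 6.54 to 7.72 ± 2.01 CPM (SD, n = 3), NXPH3 from 1.07 ± 0.485 to 0.326 ± 0.0361 CPM, and NRXN2 from 0.540 ± 0.287 to 0.0243 ± 0.0420 CPM, near the smallest detectable level. Of the 4 tested collagens 2 were lower and 1 was higher (all genes, 19.8% and 21.0%). On the log2 scale COL6A1 stood at -1.57 ± 0.18 (standard error) and COL7A1, the anchoring fibril collagen of squamous epithelium, at 1.09 ± 0.12, and COL6A3, at 0.734 ± 0.207 CPM in shCtrl (SD, n = 3), was at 0 in all shAC007128.1 samples, at least 13.8-fold lower against 3 counts in each library.

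The 3 tested genes whose log2 CPM ran most like that of AC007128.1 over the 6 samples were ENSG00000226310 on chromosome X (Pearson's r 0.992), MIR6746 on chromosome 11 (0.987) and RBMS3-AS3 on chromosome 3 (0.981). None lies on chromosome 7. They had between 4 and 40 counts per sample, against 15 to 69 for AC007128.1, and none passed the test between the groups. These r are the highest of all genes tested, over 6 samples only. How often such values arise by chance was not tested, and nothing about location is read from them.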

How the data were processed

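Per the study's methods, libraries were paired-end TruSeq from poly-A RNA. Reads of rRNA, adapters or poor quality were filtered out by the authors, and TopHat aligned the others to hg38. The labels' processing notes name TopHat2 2.0.6, which is not the version in the methods, and CASAVA 1.8, and list a mouse build beside the human one. What the authors deposited is 1 table of estimated counts by Ensembl gene, in whole numbers and not normalized. The counting program, annotation release and use of strand are not given in the sources used here, so reads from overlapping genes on opposite strands may not be told apart. More genes had a count of 4 than of 3 or of 5 in every sample. The treatment label names shAC007128.1 for every sample, so groups were taken from the titles and descriptions. Sample columns left unmapped numbered 0.

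Of the 67140 identifiers, 60357 (89.9%) were found in GENCODE v44 (hg38), which gave positions, symbols and exons. The quasi-likelihood test of edgeR 4.0.16 in R 4.3.3 was run after filterByExpr and TMM scaling, with Benjamini-Hochberg adjustment over all 19254 genes tested. A gene passed at an adjusted p of at most 0.05, and the study's 2-fold limit is given beside it. Standard errors are the log2 fold change over the root of F. The log2 CPM used for likeness and components have a prior count of 2. On simulated counts for this comparison (18581 genes), 182 of 200 changed genes were recovered and 18 unchanged genes were called. The changed genes were drawn from those of higher level and were all given changes past 2-fold. Recovery of genes as sparse as AC007128.1, or of changes as small as that of RPA3, was not tested. Only 200 genes were changed in the simulation, whereas 40.8% of the genes tested passed in the data. Scaling and adjustment with that many changed genes were thus not tried. Distance is from gene body to gene body. Sequences are from hg38 and the study's oligo tables.

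Alternatives were DESeq2 1.42.0, limma-voom (limma 3.58.1), DESeq2's size factors, library size only, other filters, counts divided by 4, the replicate block, each sample left out, the 2-fold limit, and distance between start sites. Members and lists were chosen with earlier results of these data known. Named genes are the 10 members, genes sharing exons with AC007128.1, the 10 nearest other tested genes within 2 Mb, the 3 smallest p per partner list and the 3 most similar to AC007128.1. Any other gene was named after its value was seen. Beside members left at 0, the share of genes at 0 was added after the data were seen.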

Additional observations from a re-analysis of the deposited data

How the results depend on the processing

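GLCCI1 (log2 fold change 1.33 to 1.44) and RPA3 (0.79 to 0.87) passed under all 8 other tools, scalings, filters and the replicate block, and with each sample left out (1.18 to 1.58 and 0.78 to 0.93). AC007128.1 passed in none (-0.84 to -0.78; -1.29 to -0.51 with a sample left out), with an adjusted p from 0.0959 to 0.562. UMAD1, near 0, turned sign when scaled by library size alone (-0.071), unfiltered (-0.046), with a minimum of 10 counts per sample (-0.027) and with counts divided by 4 (-0.016), and ranged from -0.80 to 0.89 with a sample left out. C1GALT1 ranged from -0.19 to 0.033 with a sample left out. The cause of these changes was not tested. The 2-fold limit left 1 of 2 higher members, 1 gene higher within 1 Mb, 1 higher and 3 lower within 2 Mb, 1 higher within 5 Mb, and 6 higher and 9 lower partners. Requiring at least 10 counts in every sample gave 1 lower gene within 1 Mb. With a sample left out, 0 to 1 members and 10 to 17 genes within 5 Mb were lower, the highest counts coming without shAC007128.1 replicate 3.

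The deviations of samples that share a number correlated at 0.0306, -0.0254 and -0.0299, so the numbers did not pair them. With the replicate block the log2 fold changes were -0.82 for AC007128.1 (edgeR adjusted p = 0.363), 1.44 for GLCCI1 and 0.87 for RPA3, and 2 members passed. AC007128.1 and NXPH1 had at most 69 and 5 counts per sample, and whether depth limited their results was not tested. With counts divided by 4, the standard error of the log2 fold change of AC007128.1 was 0.49, against 0.51 in the main fit. ICA1 and ICA1-AS1 had 0, and whether absence of their RNA, depth or the counting of shared bases gave this was not tested. Shared bases make up 3.46% of the exonic bases of ICA1 and all of those of ICA1-AS1.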
